A study of Mus musculus with 6 samples.

Results

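The transcripts of 10 genes of histone H3 lysine 9 (H3K9) methylation were followed by name among the 24346 genes with a value in whole mouse liver: 5 methyltransferases (*Ehmt1*, *Ehmt2*, *Suv39h1*, *Suv39h2* and *Setdb1*), 4 demethylases (*Kdm1a*, *Kdm3a*, *Kdm4a* and *Kdm4b*) and *Cbx5*, which encodes the reader HP1α. The 10 genes were chosen by name with no threshold on their values, at a time when earlier results of these data were known, and all 10 were found in the table. RNA was sequenced from 6 livers of male C57/BL6 mice, 3 of the control genotype med23 f/f (labelled wt) and 3 labelled med23 Δli (med23 ko). Every mouse was 8 weeks old and was killed 24 hours after an intraperitoneal injection of CCl4, a liver toxin, at 0.6 µl per g body weight in sunflower oil, so no untreated liver enters the comparison. In med23 Δli mice, Cre under the *Albumin* promoter deletes floxed *Med23*, a subunit of the Mediator coactivator complex. The study describes the deletion as specific to hepatocytes, and its extent in other liver cells was not measured here. The study found less H3K9 dimethylation at the *Ccl5* and *Cxcl10* promoters in med23 Δli livers after CCl4. It proposes that G9a, the product of *Ehmt2*, makes this mark, and tested G9a itself by overexpression in a hepatocyte line. The question here is whether the transcripts of the enzymes themselves differed between the genotypes.

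Di- and trimethyl groups on H3K9 mark repressed chromatin. The EHMT2 (G9a) and EHMT1 (GLP) proteins work as a heterodimer and make most of the mono- and dimethylated form in euchromatin. SUV39H1 and SUV39H2 make the trimethylated form at pericentromeric heterochromatin, and SETDB1 makes it at retroelements, where it is recruited by KRAB zinc finger proteins through TRIM28. KDM1A (LSD1) removes mono- and dimethyl groups with flavin as cofactor. KDM3A, KDM4A and KDM4B are oxygenases that use 2-oxoglutarate and oxygen, and their activity and the transcription of *Kdm3a* and *Kdm4b* are known to respond to hypoxia. HP1α binds the methylated lysine and compacts the chromatin that carries it.

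Start sites of the members are shown first, because short sequences at them can be set beside the transcript levels. RefSeq windows of 300 bases around the start sites (GRCm38.p6, the assembly of mm10) were matched to 9 of the 10 genes (all but *Kdm4b*), 14 windows in all. Searched on both strands were CACGTG, the E-box; ACGTG or GCGTG, the core bound by hypoxia-inducible factors, which overlaps the E-box; AGGTCA, the core bound by ROR and other nuclear receptors; and GGGCGG, the GC box. The following stretches hold the 2 E-boxes at the first *Ehmt2* start, the hypoxia core at the first *Kdm3a* start and the 2 AGGTCA cores found among the members, with the motif in capitals and each stretch read on the strand of its gene.
Ehmt2, plus strand, chr17:34898232-34898257: gctcaggctaCACGTGttcccaaaac
Ehmt2, plus strand, chr17:34898438-34898463: cctccttgtcCACGTGacccggggcg
Kdm3a, minus strand, chr6:71632930-71632954: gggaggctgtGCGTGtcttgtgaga
Ehmt1, minus strand, chr2:24919780-24919805: ctccttttggTGACCTctcagctcca
Kdm1a, minus strand, chr4:136602823-136602848: ggggcgctctAGGTCAgcctcgcgat

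The E-boxes of *Ehmt2* began 232 and 26 bases before the start site, and the core of *Kdm3a* began 27 bases before it. The hypoxia core was present in 9 of the 14 windows and in 43.8% of the 32851 windows of all genes. The E-box was present in 3 of 14, both *Ehmt2* windows and 1 of *Cbx5*, against 7.15% of all windows. AGGTCA, which the *Ehmt1* window carries on the opposite strand as TGACCT, was present in 2 of 14 against 16.3%. The GC box was present in 11 of 14 against 35.7%. These matches describe the letters of the windows, and no binding was measured in this data set.

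The values are FPKM, fragments scaled to transcript length and library size, as the authors obtained them from Cuffdiff. They are divided by length, so the levels of different genes can be set side by side, but they keep no read counts. The study's methods give only a median read number over its samples, so the reads behind each library and value are not known. The groups were compared with limma on log2(FPKM + 0.1), restricted to the 11956 genes that averaged 0.5 FPKM or more, and a gene was called at an adjusted p under 0.05 (Benjamini-Hochberg over the 11956 genes). Low genes appear less changed on this scale than they are. Each liver is 1 mouse, and the two-sided exact permutation test used for single genes cannot give a p below 0.1 with 3 livers a group.

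*Med23* itself did not separate the groups, with 3.42, 2.97 and 4.14 FPKM in med23 f/f livers and 3.40, 3.40 and 2.91 FPKM in med23 Δli livers (log2 fold change −0.11, adjusted p = 0.685, limma), so the livers are named by their labels. These values cover the whole gene and all cells of the liver, so the deletion in hepatocytes was not measured here. Hepatocyte markers summed to 22352 to 31484 FPKM in med23 f/f and 18653 to 24892 FPKM in med23 Δli livers, with 0 of 6 called and 4 of 6 at an unadjusted p under 0.05 in limma, where 21.1% and 37.6% of all genes tested were. The log2 fold changes of these 4 went both ways, −0.57 for *Apoa1*, −0.55 for *Hnf4a*, −0.63 for *Cps1* and 0.85 for *Tat*. Endothelial markers were lower in med23 Δli livers, with 5 of 5 called and sums of 75.9 to 110 FPKM against 40.5 to 43.2 FPKM. Macrophage markers summed to 179 to 242 and 208 to 221 FPKM, neutrophil markers to 39.2 to 132 and 37.8 to 96.7 FPKM, and cholangiocyte markers to 11.1 to 16.1 and 14.5 to 16.1 FPKM, with 0 called by limma and 1 of 6, 1 of 3 and 0 of 4 at an unadjusted p under 0.05. Stellate cell markers summed to 80.1 to 101 and 63.9 to 84.1 FPKM, with 1 of 6 called as lower (*Des*) and 2 of 6 at an unadjusted p under 0.05, the other being *Reln* with a log2 fold change of 0.47, and the 8 T, NK and B cell markers all averaged under 0.5 FPKM. The library of med23 Δli replicate 2 stood apart through adipocyte markers, with *Adipoq* at 5.65, *Plin1* at 2.76 and *Ucp1* at 2.29 FPKM, whereas all 3 genes were listed at 0 in the med23 f/f livers. In bulk tissue, fewer cells of a type and less RNA per cell cannot be told apart, and the part of these differences in the values below was not tested.

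*Ehmt2* was the most abundant of the 10 transcripts in every liver, and it stood higher in each med23 Δli liver than in any control, by 1.29 times in the mean, without passing the adjusted test. *Kdm4b* and *Kdm3a*, a pair of oxygenase demethylases, also had every med23 Δli value above every control value, with ratios of means of 1.30 and 1.21, and did not pass either. The other 7 genes had overlapping groups. All 10 genes passed the filter on low values. None of the 10 was called by limma, where 21.1% of all genes tested were called, 11.6% as higher and 9.48% as lower in med23 Δli livers. The shares moved with single libraries: without med23 Δli replicate 1, 2 or 3 in turn, 401, 487 and 578 genes were called higher and 349, 442 and 412 lower, and without med23 f/f replicate 2, 749 were called lower, with 0 of the 10 genes called in each case (limma). Calls that were also larger than 2-fold made up 7.9% of all genes and again included 0 of the 10. At an unadjusted p under 0.05, 2 of the 10 passed (*Ehmt2* and *Kdm4b*), beside 37.6% of all genes. Among the 10, 3 had every med23 Δli liver above every control, beside 23.3% of all genes, and 0 of the 10 had every med23 Δli liver below, beside 20.4%. The median log2 fold change was −0.00048 over the 10 genes and 0.02 over all genes tested, with 5 members positive and 5 negative.

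**Figure D1:**
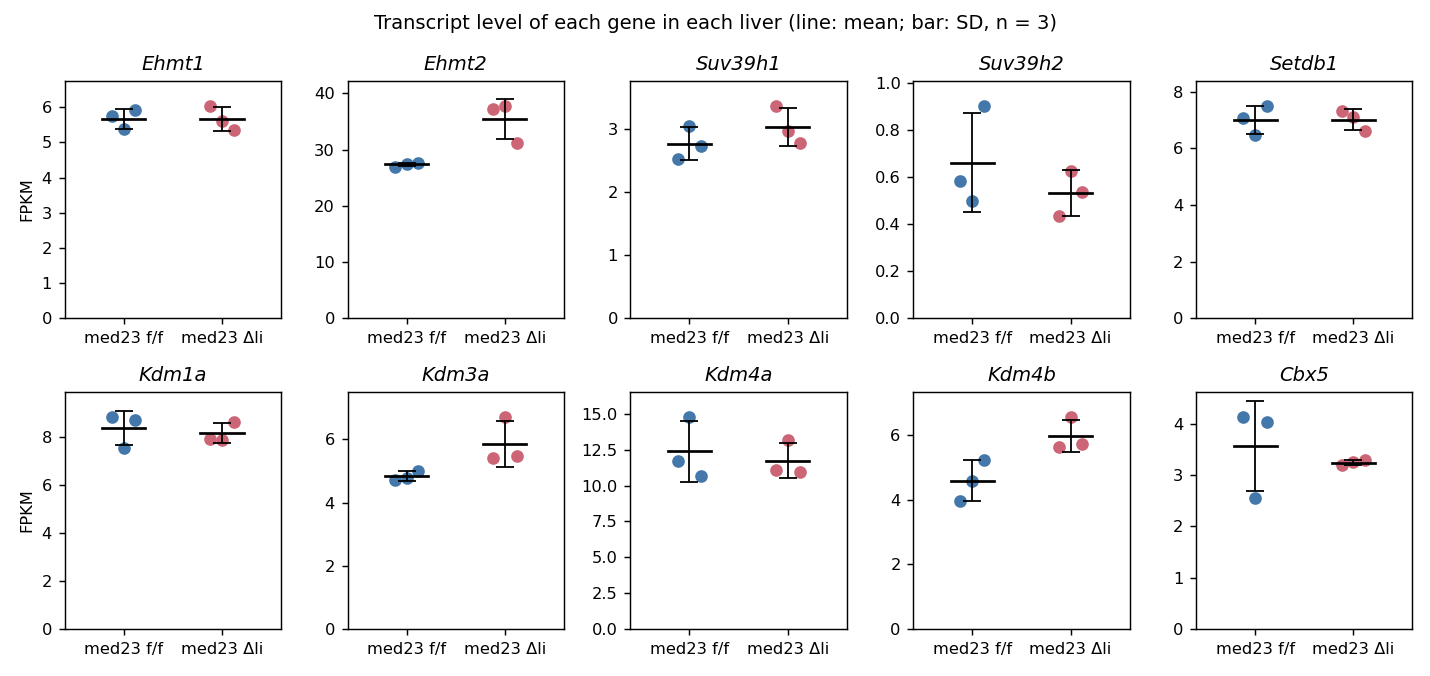
Transcript level in FPKM (vertical axes, each from 0) of each of the 10 genes in the 3 med23 f/f and the 3 med23 Δli livers. Points are livers, horizontal lines are means and bars are SD. The groups are apart for *Ehmt2*, *Kdm3a* and *Kdm4b*, and overlap for the other 7 genes.

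Among the methyltransferases, *Ehmt2* (ENSMUSG00000013787.15, chromosome 17, 34898469 to 34914052, plus strand, mm10) had 26.9, 27.5 and 27.6 FPKM in the med23 f/f livers. In the med23 Δli livers it had 37.3, 37.7 and 31.2 FPKM. The control values lay close together, with a coefficient of variation of 1.26%, and the med23 Δli values were all higher and more spread, at 10.2%. The means were 27.3 ± 0.345 and 35.4 ± 3.60 FPKM (SD, n = 3 each). The log2 fold change was 0.37 (standard error 0.13), and its 95% interval corresponds to a ratio between 1.05 and 1.58. The p was 0.0212 before and 0.0764 after adjustment (limma), and the exact permutation test gave p = 0.1, the smallest it can give with 3 against 3. The groups were apart, but the difference did not pass the threshold over all genes. Without med23 Δli replicate 2, the library with adipocyte markers, the log2 fold change was 0.32 with an adjusted p of 0.246 (limma). The values were much the same without replicate 1 of that group (0.33, adjusted p = 0.249), and without replicate 3, the lowest of that group, they were 0.45 and 0.0823 (limma).

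*Ehmt1* (ENSMUSG00000036893.17), whose product pairs with that of *Ehmt2*, had overlapping groups. Its levels were 5.74, 5.37 and 5.92 FPKM in the med23 f/f livers and 6.02, 5.62 and 5.35 FPKM in the med23 Δli livers. The groups covered nearly the same range, with means of 5.67 ± 0.282 and 5.66 ± 0.338 FPKM (SD, n = 3 each). The 95% interval of the ratio ran from 0.81 to 1.23 (adjusted p = 0.988, limma), and the log2 fold change ran from −0.048 to 0.036 with each library left out in turn. Within each liver, the level of *Ehmt2* was 4.70, 5.12 and 4.66 times that of *Ehmt1* in the controls and 6.19, 6.71 and 5.84 times in the med23 Δli livers. This ratio between 2 transcripts of the same library was higher in each med23 Δli liver than in any control, as a description with no test. *Ehmt2* held 61.8% to 64.1% of the summed FPKM of the 5 methyltransferases in the controls and 67.2% to 69.8% in the med23 Δli livers.

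The heterochromatin pair was low in all livers. *Suv39h1* (ENSMUSG00000039231.18) had 2.52, 3.04 and 2.74 FPKM in the med23 f/f livers and 3.36, 2.97 and 2.77 FPKM in the med23 Δli livers, and the groups overlapped. The log2 fold change was 0.13, with a 95% interval of −0.24 to 0.49 (adjusted p = 0.584, limma), and with each library left out in turn it ran from 0.054 to 0.20. *Suv39h2* (ENSMUSG00000026646.16) was the lowest of the 10 genes, at the 2.17th percentile of the genes tested, with 0.583, 0.498 and 0.899 FPKM in controls and 0.432, 0.625 and 0.535 FPKM in med23 Δli livers. Its log2 fold change was −0.25 with the widest 95% interval of the 10, from −0.95 to 0.46 (adjusted p = 0.586, limma), which leaves ratios between 0.52 and 1.38 in reach. The value rested largely on med23 f/f replicate 3, the highest liver, since it was −0.031 without that library and −0.40 without med23 f/f replicate 2. Of the exon bases, 14.6% in *Suv39h1* are shared with the antisense gene *Gm14820* and 8.10% in *Suv39h2* with *Dclre1c* on the opposite strand. The strand setting of the counting is not given in the sources used here, so reads of these partners cannot be told apart.

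*Setdb1* (ENSMUSG00000015697.14) was the second of the methyltransferases by level, with 7.06, 6.47 and 7.48 FPKM in the med23 f/f livers and 7.33, 7.10 and 6.60 FPKM in the med23 Δli livers. The med23 Δli range lay inside the control range, and the means were 7.003 ± 0.510 and 7.01 ± 0.370 FPKM (SD, n = 3 each). The 95% interval of the ratio ran from 0.81 to 1.23 (adjusted p = 0.990, limma), and the log2 fold change ran from −0.053 to 0.051 with each library left out in turn. A share of 1.09% of its exon bases overlaps the abundant *Cers2* on the opposite strand, which averaged 164 FPKM.

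Among the demethylases, *Kdm4b* (ENSMUSG00000024201.12, chromosome 17, 56326062 to 56402870, plus strand), which acts on trimethylated H3K9, had 3.97, 4.57 and 5.25 FPKM in the med23 f/f livers. In the med23 Δli livers it had 5.64, 6.57 and 5.74 FPKM. All 3 lay above the highest control, though the gap between 5.25 and 5.64 was small beside the range within the controls. The means were 4.60 ± 0.639 and 5.98 ± 0.507 FPKM (SD, n = 3 each), and the log2 fold change was 0.38 (standard error 0.15, 95% interval 0.02 to 0.73). The p was 0.0396 before and 0.115 after adjustment (limma), and p = 0.1 in the exact permutation test. Without med23 f/f replicate 3, the highest control, the adjusted p was 0.0553, and without med23 Δli replicate 2 it was 0.317 with a log2 fold change of 0.31 (limma). Without replicate 1 or 3 of that group it was 0.215 and 0.195, with log2 fold changes of 0.42 and 0.41 (limma).

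*Kdm3a* (ENSMUSG00000053470.13, chromosome 6, 71588972 to 71632990, minus strand), which removes mono- and dimethyl groups, the forms made by G9a, had 4.71, 4.78 and 5.01 FPKM in the med23 f/f livers. In the med23 Δli livers it had 5.41, 6.70 and 5.48 FPKM, the highest in replicate 2. The groups did not overlap, with means of 4.83 ± 0.155 and 5.86 ± 0.728 FPKM (SD, n = 3 each). The log2 fold change was 0.27 (standard error 0.14, 95% interval −0.06 to 0.59, adjusted p = 0.204, limma), and the exact permutation test gave p = 0.1. Without med23 Δli replicate 2, whose value was the highest, the log2 fold change was 0.17 and the adjusted p 0.533 (limma). Without replicate 1 or 3 of that group the log2 fold change was 0.32 and 0.31, with adjusted p of 0.287 and 0.259 (limma).

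*Kdm1a* (ENSMUSG00000036940.15) and *Kdm4a* (ENSMUSG00000033326.15) were the more abundant demethylase transcripts and had overlapping groups. *Kdm1a* had 8.83, 7.56 and 8.72 FPKM in the med23 f/f livers and 7.94, 7.89 and 8.65 FPKM in the med23 Δli livers, with a 95% interval of the ratio of 0.793 to 1.202 (adjusted p = 0.870, limma). *Kdm4a* had 11.7, 14.8 and 10.7 FPKM in the controls and 11.1, 13.2 and 10.98 FPKM in the med23 Δli livers, with an interval of 0.74 to 1.24 (adjusted p = 0.787, limma). Left-out libraries moved the log2 fold change of *Kdm1a* between −0.11 and 0.0053 and that of *Kdm4a* between −0.17 and 0.064, the latter without med23 f/f replicate 2. *Kdm4a* and *Kdm4b* encode close relatives. The ratio of *Kdm4a* to *Kdm4b* was 2.96, 3.24 and 2.03 in the controls and 1.97, 2.004 and 1.91 in the med23 Δli livers, so the third control lay close to the med23 Δli livers. The 4 demethylases summed to 29.3 to 31.7 FPKM in the controls and 30.1 to 34.3 FPKM in the med23 Δli livers, and the 5 methyltransferases to 42.8 to 44.6 and 46.5 to 54.4 FPKM, given as a description.

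*Cbx5* (ENSMUSG00000009575.14) had 4.13, 2.55 and 4.02 FPKM in the med23 f/f livers and 3.19, 3.25 and 3.28 FPKM in the med23 Δli livers. Here the spread lay in the controls, with a coefficient of variation of 24.6% against 1.46%, and the med23 Δli values fell between the second control and the other two. The log2 fold change was −0.10 with a 95% interval of −0.57 to 0.37 (adjusted p = 0.739, limma). It was 0.014 without med23 f/f replicate 1 and −0.32 without med23 f/f replicate 2, the lowest control.

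**Figure D2:**
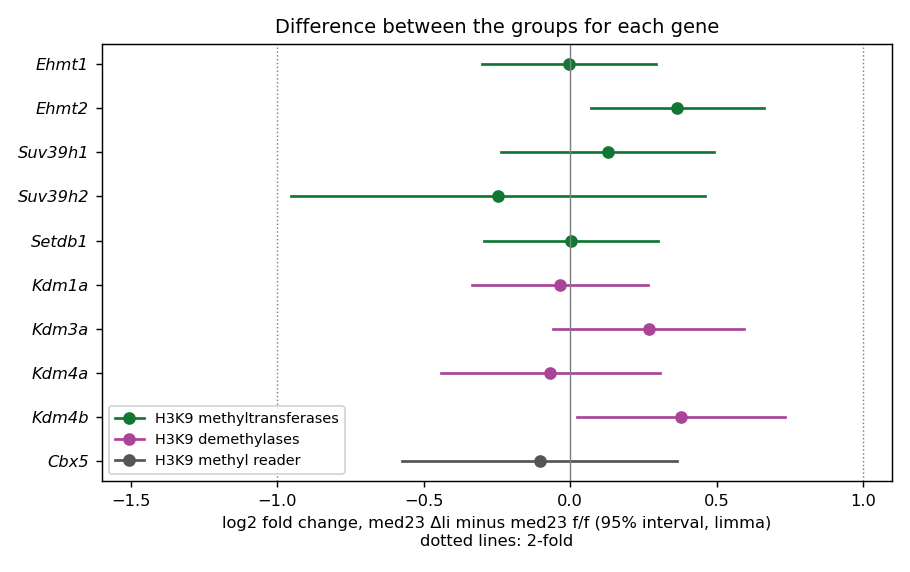
Log2 fold change of med23 Δli against med23 f/f livers for each of the 10 genes (horizontal axis), with points for the limma estimates and lines for 95% intervals, coloured by function. The intervals of *Ehmt2* and *Kdm4b* lie above 0 and none of the 10 intervals reaches the dotted lines at a 2-fold difference.

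The order of the levels was similar in both groups at the top and the bottom. In the med23 f/f livers the means ran from *Ehmt2* (27.3 FPKM) through *Kdm4a* (12.4), *Kdm1a* (8.37), *Setdb1* (7.003), *Ehmt1* (5.67), *Kdm3a* (4.83), *Kdm4b* (4.60), *Cbx5* (3.57) and *Suv39h1* (2.77) to *Suv39h2* (0.660). The ranges of neighbours were apart except for *Kdm3a* and *Kdm4b*, *Kdm4b* and *Cbx5*, and *Cbx5* and *Suv39h1*. In the med23 Δli livers, *Kdm4b* and *Kdm3a* stood above *Ehmt1*, but the ranges of neighbours overlapped between *Kdm4b* and *Kdm3a* and between *Kdm3a* and *Ehmt1*, so this change of places was within the spread. *Ehmt2* lay at the 79.6th percentile of all tested genes by mean level, and the other 9 between the 2.17th and the 58.8th.

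Among the 38 other tested genes of H3K9 methylation, the 3 whose log2 values ran most like those of *Ehmt2* over the 6 livers were *Wiz* (Pearson r = 0.870), *Kdm3a* (0.848) and *Kdm4b* (0.819). The 6 points share the genotype difference and the library scaling, so these are descriptions. *Wiz*, a zinc finger partner of the G9a and GLP dimer, had 7.34, 7.43 and 9.70 FPKM in the med23 f/f livers and 12.1, 11.5 and 10.6 FPKM in the med23 Δli livers. All 3 med23 Δli values were above the controls, and the log2 fold change of 0.49 had an adjusted p of 0.0548 (limma), which did not pass. *Mphosph8*, another partner of methyltransferases and named here after its values were seen, lay the other way and also did not pass, with 9.11, 7.22 and 7.19 FPKM in the controls and 5.58, 5.84 and 5.30 FPKM in the med23 Δli livers (log2 fold change −0.48, adjusted p = 0.0520, limma; r = −0.770 with *Ehmt2*).

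The wider machinery of H3K9 methylation was read from lists of 34 further genes, of which 29 passed the filter. *Prdm16*, *Mecom*, *Kdm4d*, *Rcor2* and *Cdyl2* lay below it. Limma called 0 of the 29 higher and 1 lower in med23 Δli livers, where 11.6% and 9.48% of all genes were called, and 8 had an unadjusted p under 0.05, beside 37.6% of all genes. Without med23 f/f replicate 3, 4 were called higher and 2 lower. Their median log2 fold change was 0.07, beside 0.02 for all genes. In 6 of the 29 every med23 Δli liver was above every control, beside 23.3% of all genes, and in 3 every one was below, beside 20.4%. None of the other 2 methyltransferases, 8 partners of methyltransferases, 6 demethylases and 6 readers tested was called, with 1, 2, 1 and 2 at an unadjusted p under 0.05.

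The called gene was *Hdac1*, a histone deacetylase that sits with KDM1A in the CoREST complex. It had 26.4, 20.8 and 16.8 FPKM in the med23 f/f livers and 14.6, 10.03 and 13.5 FPKM in the med23 Δli livers. The groups did not overlap, and *Hdac1* fell from 21.3 ± 4.81 to 12.7 ± 2.38 FPKM (SD, n = 3 each; log2 fold change −0.74, standard error 0.21, adjusted p = 0.0422, limma). The call was lost without any 1 of the med23 Δli replicates, without med23 f/f replicate 1 or 2, without the filter and without the variance trend.

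Enzymes of the other main histone H3 methylation sites were set beside these. Of 21 genes for H3K4, H3K27 and H3K36, all tested, limma called 1 higher and 1 lower, beside 11.6% and 9.48% of all genes, and 4 had an unadjusted p under 0.05, beside 37.6%. Their median log2 fold change was 0.15, and the 2 called genes are named as single genes, since the list as a whole held no larger share of calls than all genes. *Kdm6b*, a demethylase of H3K27, had 5.59, 4.84 and 6.28 FPKM in the controls and 9.42, 8.32 and 8.00 FPKM in the med23 Δli livers (log2 fold change 0.62, standard error 0.15, adjusted p = 0.0255, limma). *Kdm2b*, a demethylase of H3K36 that also brings a Polycomb complex to CpG islands, had 8.44, 7.95 and 8.5005 FPKM in the controls and 3.30, 6.63 and 3.59 FPKM in the med23 Δli livers (log2 fold change −0.94, standard error 0.25, adjusted p = 0.0359, limma). Each group of 3 was apart from the other in both genes. The call of *Kdm6b* was lost without any 1 of the med23 Δli replicates and without med23 f/f replicate 1 or 2, and that of *Kdm2b* without med23 Δli replicate 1 or 3, without any 1 of the controls and without the filter. Without med23 f/f replicate 3, 2 of the 21 were called higher and 0 lower.

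Because *Kdm3a* and *Kdm4b* are hypoxia-inducible in many cells, 10 hypoxia-inducible genes were also read, of which 9 passed the filter (all but *Car9*). Limma called 1 higher and 0 lower, where 21.1% of all genes were called, and 3 had an unadjusted p under 0.05, beside 37.6%. The median log2 fold change was 0.08, with 6 genes positive and 3 negative. *Egln3*, a prolyl hydroxylase that marks HIF for degradation, rose from 8.45, 14.7 and 15.3 FPKM in the controls to 27.8, 19.7 and 22.7 FPKM in the med23 Δli livers (log2 fold change 0.90, standard error 0.25, adjusted p = 0.0377, limma). The call of *Egln3* was lost without any 1 of the med23 Δli replicates and without med23 f/f replicate 1, as well as without the filter or the variance trend, whereas 3 of the 9 genes were called higher without med23 f/f replicate 3 and 1 lower without med23 f/f replicate 1. *Ankrd37* and *Slc2a1*, the others at an unadjusted p under 0.05, are named here after their values were seen. *Ankrd37* lay in the other direction without passing, with 0.990, 2.59 and 1.02 FPKM in the controls and 0.390, 0.851 and 0.272 FPKM in the med23 Δli livers (log2 fold change −1.41, standard error 0.47, adjusted p = 0.0654, limma). *Slc2a1* lay higher with overlapping groups and did not pass either (log2 fold change 0.52, adjusted p = 0.115, limma). Proliferation markers, which can move with *Suv39h1*, *Suv39h2* and *Cbx5*, summed to 83.9 to 102 FPKM in the controls and 82.8 to 89.8 FPKM in the med23 Δli livers, and limma called 0 of the 12 tested, with 2 at an unadjusted p under 0.05.

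**Figure D3:**
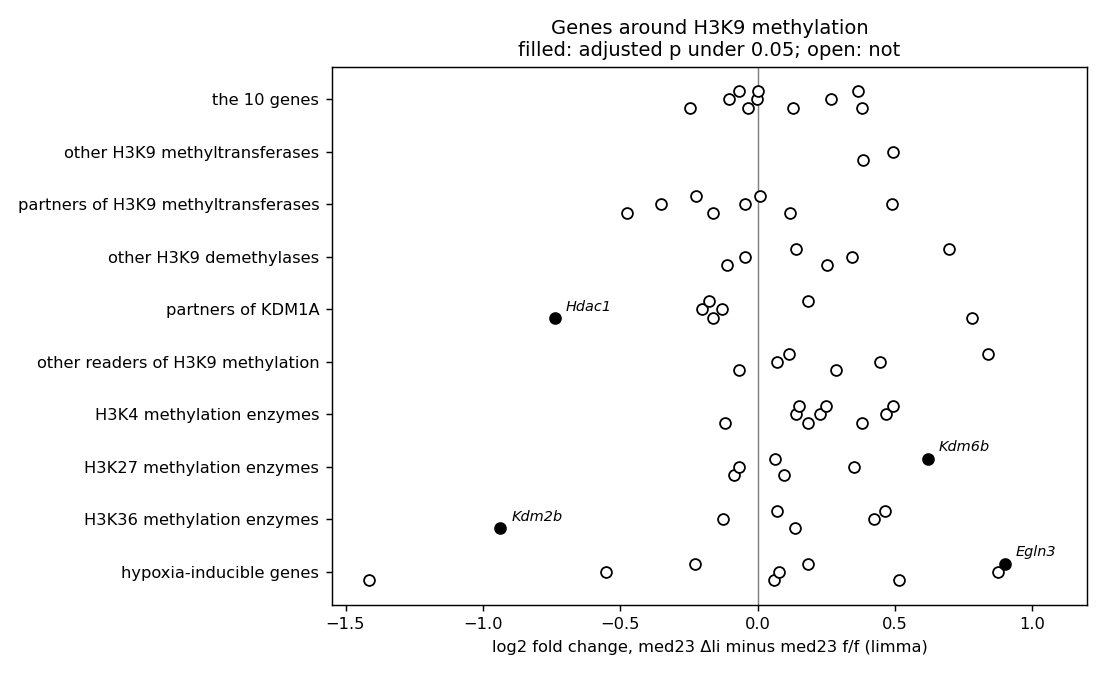
Log2 fold change of med23 Δli against med23 f/f livers (horizontal axis) for the 10 genes and for each list of related genes that passed the filter (rows). Filled points passed the adjusted p of 0.05 and are named (*Hdac1*, *Kdm6b*, *Kdm2b* and *Egln3*), and open points did not.

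The adjusted p of *Ehmt2* lay between 0.0737 and 0.249 over 15 other settings of the limma test, with a log2 fold change of 0.30 to 0.45. For *Kdm4b* the range was 0.0553 to 0.317 and for *Kdm3a* 0.194 to 0.533 (limma). Since the groups did not overlap in these 3 genes, only median centring and quantile normalization could have changed the direction, and both kept it.

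**Figure D4:**
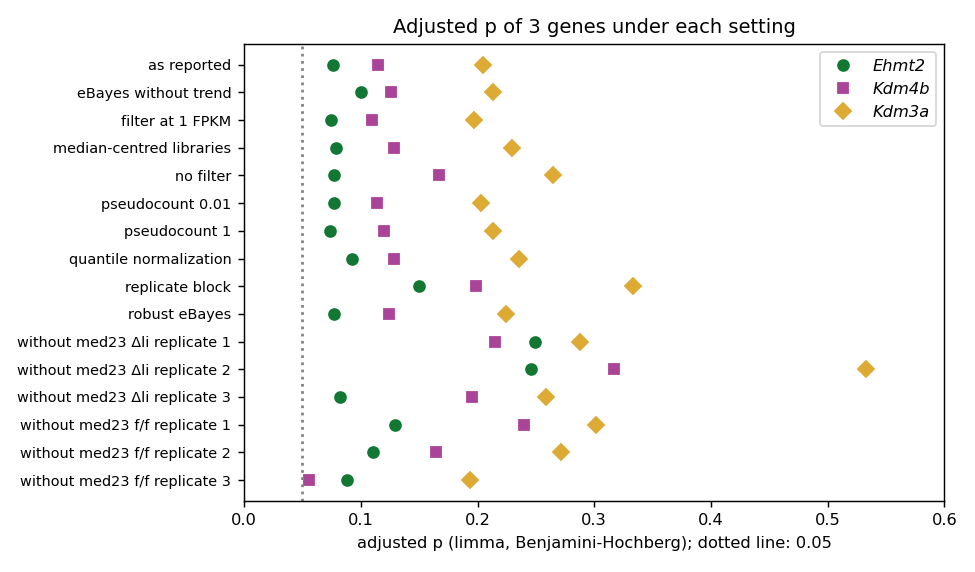
Adjusted p from limma (horizontal axis) of *Ehmt2*, *Kdm4b* and *Kdm3a* as reported and under each of 15 other settings (rows), with the dotted line at 0.05. The 3 genes stayed above the line in every row, and the nearest was *Kdm4b* at 0.0553 without med23 f/f replicate 3.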

How the data were processed

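Whole-liver RNA from 6 mice, 3 med23 f/f and 3 labelled med23 Δli, was sequenced as paired reads (TruSeq v2 libraries), 1 mouse per library. The authors trimmed adapters, aligned the reads with TopHat to UCSC mm10 and ran Cuffdiff. Versions, annotation and strand setting are not given in the sources used here. The deposited values are FPKM per gene and library, normalized by the authors. The deposited table also holds the authors' group means, fold changes, p-values and q-values, which were not used. Whole reads could not be recovered from low FPKM values, so the reads behind each library are not known beyond the median read number in the study's methods, and the spread between mice is the only error.

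Values were taken as log2(FPKM + 0.1) and fitted with limma 3.58.1 (R 4.3.3; lmFit, eBayes with trend) over the 11956 genes averaging 0.5 FPKM or more, with Benjamini-Hochberg adjustment over all of them. The test was checked on simulated data first. It recovered 55 of 100 genes given a log2 change of 1 and 91 of 100 given 2, with 4 false calls. Smaller changes, such as those of the 10 genes, were not simulated. The 10 genes and the lists of related genes and markers were chosen with earlier results of these data known. From the lists other than the cell type markers, genes called at an adjusted p under 0.05 are named, and beside *Ehmt2* the 3 H3K9 genes with the highest correlation. *Mphosph8*, *Ankrd37*, *Slc2a1* and some cell type markers are named outside this rule, the first 3 after their values were seen. *Whsc1* and *Whsc1l1* stand for *Nsd2* and *Nsd3*, and *Ly6g* was not matched. Single genes had an exact two-sided permutation test in scipy 1.17.1. Alternatives tried were other pseudocounts (1 and 0.01), filtering at 1 FPKM or not at all, median centring, quantile normalization, eBayes without trend, robust eBayes, a replicate block, and leaving out each library. Positions and overlaps come from GENCODE M21 and start-site windows from RefSeq. Python 3.11.15, pandas 2.3.3, numpy 2.4.6 and matplotlib 3.10.9 were used.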

Additional observations from a re-analysis of the deposited data

How the results depend on the processing

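Under all 15 alternatives, limma called 0 of the 10 genes, with *Suv39h2* left untested by the filter at 1 FPKM. The direction was kept for *Ehmt2*, *Kdm3a*, *Kdm4b*, *Suv39h1* and *Suv39h2*. For *Ehmt2*, *Kdm3a* and *Kdm4b*, whose groups did not overlap, only median centring and quantile normalization could have changed it. The log2 fold changes near 0 changed sign for *Setdb1* with median centring (−0.026) and quantile normalization (−0.034), and with libraries left out in turn *Setdb1* ran from −0.053 to 0.051, *Ehmt1* from −0.048 to 0.036, *Kdm1a* from −0.11 to 0.0053, *Kdm4a* from −0.17 to 0.064 and *Cbx5* from −0.32 to 0.014, while *Suv39h1* stayed between 0.054 and 0.20 and *Suv39h2* between −0.40 and −0.031. Replicate numbers did not pair the livers (correlations of same-numbered deviations −0.02, −0.05 and −0.12), and with a replicate block 809 genes were higher and 614 lower, against 1384 and 1133. The block gave *Ehmt2* an adjusted p of 0.150 (limma) and called 0 of the 10 genes. Leaving out libraries in turn gave 401 to 1750 higher and 349 to 1429 lower genes. For the 29 other H3K9 genes the calls were 0 lower without trend, without the filter and with the block, and 2 lower with the filter at 1 FPKM, median centring or quantile normalization, and with libraries left out 0 to 4 were higher and 0 to 2 lower. For the H3K4, H3K27 and H3K36 enzymes there were 0 higher and 0 lower with the block and 0 lower without the filter, and with libraries left out 0 to 2 higher and 0 to 1 lower. For the hypoxia-inducible genes 0 were higher without trend, without the filter and with the block, which called 1 lower, and with libraries left out 0 to 3 were higher and 0 to 1 lower. The cause of these changes was not tested. FPKM gives no depth from which a counting error could be found, and with 3 livers a group the intervals of the 10 genes span changes of up to 1.66 times upward for *Kdm4b* and down to 0.517 times for *Suv39h2*.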

Other observations

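The study's list of qRT-PCR primers holds a pair for G9a, which was searched in the mouse transcripts of GENCODE M21 to find its place in *Ehmt2*. The study overexpressed G9a in a hepatocyte line, and transcripts of other species were not searched. The forward primer matched 5 of the 14 *Ehmt2* transcripts exactly and no transcript of another gene, at chr17:34912419-34912439 (plus strand), in exon 25 of 27 of ENSMUST00000013931.11, which is coding. The reverse primer matched no annotated mouse transcript exactly. Its nearest stretch in *Ehmt2* transcripts, at chr17:34912761-34912780 in exon 26 of that transcript, differs at 2 positions, A4G and G16A, counted from the 5′ end of the primer with the primer's base first and the base of the complementary *Ehmt2* strand last. Capitals mark those 2 positions in the primer.
G9a forward primer: ggctgatgtgagagaggatga
G9a reverse primer: ggaActgaagaaggcGatgc
Between these places the product would span 196 bases of the transcript. What the pair amplified was not measured in these data.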
